A study of Mus musculus with 2 samples.

Results

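Iron-sulphur clusters are made on and handed along a chain of dedicated proteins, and 9 genes of that chain were followed in mouse G1E cells. They were Iscu, Nfs1, Hscb, Glrx5, Isca1, Isca2, Nfu1, Bola3 and Ciao1, taken by name from 43346 annotated genes. Earlier results of these data were known when the 9 were chosen. G1E is an immortalised erythroid progenitor line, labelled Gata1-, from a male at postnatal day 0. Poly(A)-selected RNA was sequenced as single-end reads in 2 libraries, labelled biological replicates 1 and 2 of 1 biosample. There was 1 group and no second condition, so no test between conditions was made and the spread between the libraries may be technical. The labels do not say whether the line is 1 clone or which part of Gata1 was disrupted.

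The clusters are built in mitochondria. NFS1 takes sulphur from cysteine, ISCU is the scaffold on which iron and sulphur are joined, and the co-chaperone HSCB helps pass the new cluster to the glutaredoxin GLRX5. ISCA1, ISCA2, NFU1 and BOLA3 act later and serve clients such as lipoate synthase and respiratory complexes, while CIAO1 belongs to the complex that places clusters on cytosolic and nuclear proteins. In red cell precursors the pathway meets haem synthesis, since ferrochelatase carries a cluster, as does the iron sensor ACO1 when iron is plentiful. Loss of GLRX5 is known to cause sideroblastic anaemia.

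Replicate 1 held 31645051 expected counts (estimated reads assigned to genes) and replicate 2 held 56983558. Levels are in TPM, a count divided by effective length and scaled so that both libraries sum alike, and are therefore comparable between genes. The effective lengths imply 36-nt reads for replicate 1 and 55-nt reads for replicate 2. Protein-coding genes took 84.4% and 75.1% of the TPM total. All 8 erythroid markers examined (Gata2, Klf1, Tal1, Gfi1b, Nfe2, Zfpm1, Epor and Kit) were expressed, meaning 1 TPM or more in both libraries, from 89.5 to 764 TPM. Their levels were not alike in the libraries, with a summed TPM of 2918 in replicate 1 and 1544 in replicate 2 and medians of 307 and 140.5 TPM. In TPM 7 of the 8 were lower in replicate 2, with Nfe2 at 423 and 125 TPM and Gfi1b at 764 and 363 TPM. None of 8 markers of other cells (among them Cd3e, Mpo, Elane, Csf1r, Cdh5, Col1a1 and Alb) was expressed. Their summed level was 2.93 and 0.32 TPM, and Elane had no count in either. Cd3e passed 1 TPM in replicate 1 only, at 1.68 and 0.02 TPM from 55 and 1 counts. Col1a1 had 58 counts in replicate 1 and 1 in replicate 2. Gata1 RNA stood at 88.2 and 61.4 TPM, which does not check the Gata1- label.

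The upstream bases of Glrx5 and Bola3 are printed because these were the 2 genes of highest level among the 9. RefSeq windows of 300 bases, 250 before and 50 after the start, on GRCm38.p6 were found for 7 of the 9 genes, all but Iscu and Hscb. Bola3 has 3 such windows and the others 1 each; the one nearest the annotated gene start was used, which for Bola3 is the start of the transcript Bola3-203. The stretches below are the 250 upstream bases of each gene from 5′ to 3′ on its own strand, with the CCAAT box in capitals (CCAAT, or ATTGG where it lies on the other strand). Glrx5 is on the plus strand at chr12:105032368-105032617 and Bola3 on the plus strand at chr6:83348897-83349146.
Glrx5: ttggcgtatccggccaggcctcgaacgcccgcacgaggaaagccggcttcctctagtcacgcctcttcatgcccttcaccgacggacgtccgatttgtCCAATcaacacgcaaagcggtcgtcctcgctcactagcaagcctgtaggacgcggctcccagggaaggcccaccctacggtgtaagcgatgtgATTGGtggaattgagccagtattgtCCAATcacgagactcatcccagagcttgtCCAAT
Bola3: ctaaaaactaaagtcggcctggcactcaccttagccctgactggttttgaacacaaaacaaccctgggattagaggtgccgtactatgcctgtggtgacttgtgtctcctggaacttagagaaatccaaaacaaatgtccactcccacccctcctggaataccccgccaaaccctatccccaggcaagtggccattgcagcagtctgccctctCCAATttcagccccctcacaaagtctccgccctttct
The Glrx5 stretch held 21 CpG steps and 4 CCAAT boxes, and the Bola3 stretch held 4 CpG steps and 1 CCAAT box. The count for Bola3 depends on the start taken, since the 250 upstream bases of its most downstream RefSeq start held 21 CpG steps and 0 CCAAT boxes. Windows with 4 or more CCAAT boxes were 1.06% of all 32851 windows and 2.17% of the 9264 windows of expressed genes. At least 1 box was present in 5 of the 7 windows (Bola3 counted from the window used), against 37.4% of all windows and 39.0% of those of expressed genes. This motif was added after the sequences had been seen. The RefSeq start of Glrx5 lies upstream of the GENCODE start used for the gene coordinates, and that of Nfu1 lies 600 bases downstream of its own.

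Isca2 and Ciao1 lie back to back with another gene, so close that the whole space between the starts can be shown. The capitals mark CCAAT, the ETS core CCGGAAG and the GATA core AGATAA, each searched on both strands, so that TTATCT is AGATAA read on the other strand. The Isca2 stretch is the gap to Npc2 at chr12:84773153-84773250 on the plus strand. The Ciao1 stretch is the gap to Tmem127 at chr2:127247817-127247907, read on the minus strand.
Isca2: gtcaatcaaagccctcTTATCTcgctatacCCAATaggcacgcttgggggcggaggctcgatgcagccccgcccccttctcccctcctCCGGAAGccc
Ciao1: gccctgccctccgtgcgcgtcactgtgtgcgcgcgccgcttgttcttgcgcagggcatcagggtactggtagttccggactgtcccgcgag
The Isca2 gap of 98 bases held 1 match to each of the 3 motifs, and the Ciao1 gap of 91 bases held none of them. In the longer RefSeq windows the ETS core was in 4 of 7 (Nfs1, Isca1, Isca2 and Ciao1), against 8.86% of all windows and 21.0% of those of expressed genes. Isca2 was the 1 of 7 with the GATA core, which was in 11.2% of all windows and 6.21% of those of expressed genes. The NRF1 core GCATGCGC, the cyclic AMP response element core TGACGT, the E-box CACGTG and the TATA box TATAAA were in 0 of 7 windows. Among windows of expressed genes these 4 were in 6.11%, 12.6%, 10.7% and 6.29%, and among all windows in 2.71%, 7.51%, 7.15% and 13.6%. The median window of the 7 genes held 24 CpG steps, from 5 in Bola3 (30 in its most downstream window) to 35 in Nfs1, beside a median of 21.5 for expressed genes and 7 for all windows. A match to these letters describes the sequence only.

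All 9 assembly genes were expressed, beside 42.5% of 21474 protein-coding genes. Levels ran from 34.1 to 317 TPM in replicate 1, with a median of 62.6, and from 35.3 to 621 TPM in replicate 2, with a median of 80.0. The median of the mean levels was 71.3 TPM, beside 23.5 TPM over expressed protein-coding genes. Every one of the 9 lay above 85.4% or more of protein-coding genes. Glrx5 stood apart at the top, and the lower 4 genes, Isca1, Hscb, Nfs1 and Isca2, had mean levels between 40.6 and 45.5 TPM.

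**Figure D1:**
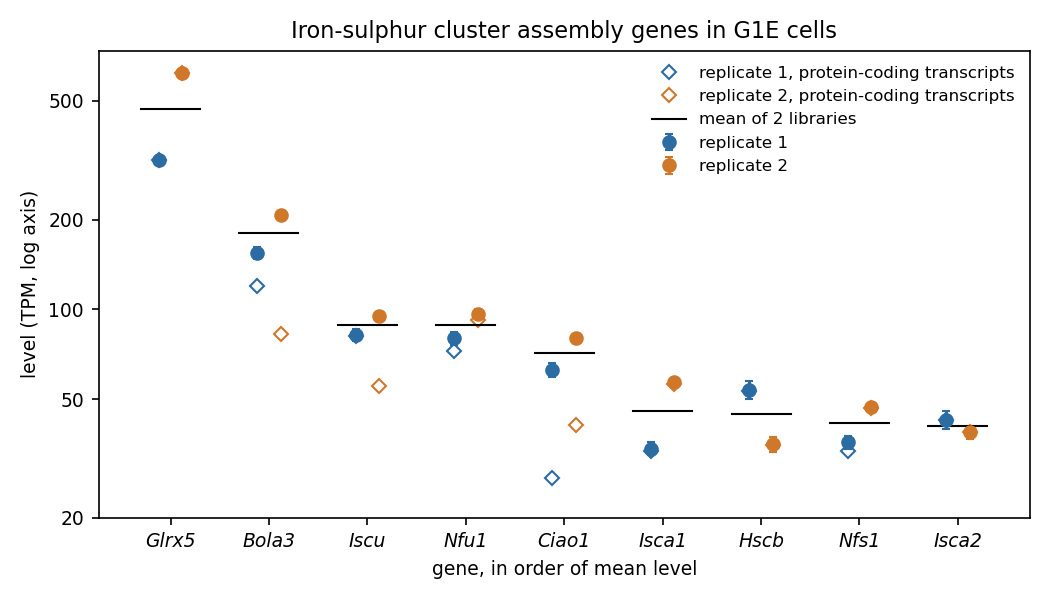
Level of each of the 9 genes in TPM on a log axis, ordered by mean level. Filled circles are the 2 libraries with 95% Poisson intervals of the count, black lines their mean, and open diamonds the level of protein-coding transcripts alone. Glrx5 sits highest in both libraries at 317 and 621 TPM, and the open diamonds of Bola3, Iscu and Ciao1 fall below their circles.

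Iscu, the scaffold, and Nfs1, the sulphur donor, work in 1 complex but differed in RNA level. Iscu (ENSMUSG00000025825.8, chr5:113772748-113778288, plus strand) was at 82.2 and 94.96 TPM in replicates 1 and 2, a mean of 88.6 ± 9.02 (SD, n = 2), from 1853 and 3243 counts. Nfs1 (ENSMUSG00000027618.13, chr2:156123639-156144186, minus strand) was at 35.9 and 47.1 TPM, a mean of 41.5 ± 7.96 (SD, n = 2), from 1657 and 4053 counts. Iscu exceeded Nfs1 in both libraries, by 1.17 and 1.00 on the log2(TPM + 1) scale, a mean of 1.09 ± 0.13 (SD, n = 2). That mean is past 1.07, the 95% bound for a difference between genes averaged over both libraries, which was derived from a pooled SD of 0.55 over 9118 expressed genes. With protein-coding transcripts alone the difference was 0.75, inside that bound. The bound comes from whole-gene levels, and none was derived for protein-coding transcripts alone. Sequence of Iscu is shared with other genes, since 16.1% of its 36-base words occur elsewhere and 12.4% occur in the pseudogene Gm16437, itself at 1.49 and 0.79 TPM. Nfs1 shares 6.18% with Gm28036, a gene on the same strand at 11.8 and 20.9 TPM, so the split of reads between them is uncertain.

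The partners of the scaffold complex were 8 of 8 expressed, beside 42.5% of all protein-coding genes, with list medians of 41.5 and 49.0 TPM. Ndufab1, the acyl carrier protein, led at 262 and 390 TPM, and the mitochondrial chaperone Hspa9 followed at 191 and 238 TPM. Fdx2, the ferredoxin that supplies electrons, was at 73.9 and 62.6 TPM. Lyrm4, which stabilises NFS1, was at 11.95 and 15.4 TPM, and Nfs1 exceeded it by 1.53 ± 0.03 on the log2 scale (SD, n = 2), past the bound. The complex thus ran from Ndufab1 at the top to Lyrm4 and Fdx1 at the bottom. Fdx1, a second ferredoxin, was the 1 partner past 2-fold between the libraries, at 9.95 and 20.1 TPM, and is named after its value was seen.

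Hscb encodes the J-domain co-chaperone that brings ISCU to HSPA9. Hscb (ENSMUSG00000043510.8, chr5:110829070-110839777, minus strand) was at 53.7 and 35.3 TPM, a mean of 44.5 ± 13.0 (SD, n = 2), from 790 and 1192 counts. It was higher in replicate 1 by 1.52-fold in TPM, and its Poisson intervals of 50.04 to 57.6 and 33.3 to 37.4 TPM did not overlap. Hspa9 exceeded Hscb by 2.27 ± 0.64 on the log2 scale (SD, n = 2), past the bound. The 2 libraries put that difference at 1.81 and 2.72.

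Glrx5 encodes the mitochondrial glutaredoxin that receives clusters from the scaffold. It (ENSMUSG00000021102.3, chr12:105032688-105042906, plus strand) was at 317 and 621 TPM, a mean of 469 ± 215 (SD, n = 2), from 6628 and 24674 counts. It lay above 99.0% of protein-coding genes and carried 36.8% and 48.6% of the summed TPM of the 9 genes. Its Poisson intervals, 309 to 325 and 613 to 629 TPM, cover counting error only and are far narrower than the gap between libraries. The erythroid markers moved the other way, with a median log2 ratio of -0.53 in TMM-scaled counts, replicate 2 over replicate 1, from -1.32 for Nfe2 and -1.04 for Gfi1b to 0.15 for Epor and 0.19 for Tal1. Their part in the difference of Glrx5 was not tested, and RNA per cell and the mix of cells cannot be told apart in bulk RNA. Glrx5 exceeded Iscu by 2.32 ± 0.54 on the log2 scale and its cytosolic counterpart Glrx3, at 18.2 and 56.1 TPM, by 3.75 ± 0.43 (SD, n = 2 for both). Both differences are past the bound. The gene has 1 transcript in the tables, and none of its 36-base words occurs in another gene, so its level rests on no division of reads.

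The paired late-acting proteins ISCA1 and ISCA2 had RNAs at close mean levels but in opposite order in the 2 libraries. Isca1 (ENSMUSG00000044792.6, chr13:59755409-59769810, minus strand) was at 34.1 and 56.9 TPM, a mean of 45.5 ± 16.1 (SD, n = 2), from 1530 and 4895 counts. Isca2 (ENSMUSG00000021241.6, chr12:84773251-84775088, plus strand) was at 42.5 and 38.7 TPM, a mean of 40.6 ± 2.65 (SD, n = 2), from 826 and 1428 counts. Isca2 had the smallest SD of the 9. Isca1 minus Isca2 was -0.31 in replicate 1 and 0.54 in replicate 2, a mean of 0.12 ± 0.60 (SD, n = 2), inside the bound. Of the 36-base words of Isca1, 32.4% occur in AK157302, which was at 0.13 and 0.07 TPM. Their partner Iba57 was at 6.44 and 9.47 TPM, below both.

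Nfu1 and Bola3, which cooperate in delivering clusters to lipoate synthase and respiratory complexes, differed by about the size of the bound. Nfu1 (ENSMUSG00000029993.12, chr6:87009236-87028461, plus strand) was at 79.9 and 96.8 TPM, a mean of 88.3 ± 11.95 (SD, n = 2), from 1554 and 3596 counts. Bola3 (ENSMUSG00000045160.10, chr6:83349147-83360136, plus strand) was at 155 and 207 TPM, a mean of 181 ± 36.9 (SD, n = 2), from 1988 and 4120 counts. Nfu1 was below Bola3 in both libraries, by a difference of -1.01 ± 0.10 on the log2 scale (SD, n = 2), which became -0.27 with protein-coding transcripts alone. Nfu1 and Iscu stood level, at -0.01 ± 0.05 (SD, n = 2), with the sign turning between libraries. Within the BolA family, Bola3 exceeded the other mitochondrial member Bola1, at 45.3 and 49.4 TPM, by 1.90 ± 0.21 (SD, n = 2), past the bound. With protein-coding transcripts alone that difference was 1.05, just inside the whole-gene bound of 1.07. The cytosolic Bola2, at 207 and 259 TPM, was above Bola3 in both libraries, at -0.37 ± 0.07 for Bola3 minus Bola2 (SD, n = 2). With both genes restricted to their protein-coding transcripts that sign turned, to 0.38. The third late partner, Nubpl, which serves respiratory complex I, was at 2.87 and 5.65 TPM, past 2-fold between the libraries in scaled counts.

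Ciao1 encodes the beta-propeller protein of the cytosolic targeting complex. It (ENSMUSG00000003662.6, chr2:127240938-127247816, minus strand) was at 62.6 and 80.0 TPM, a mean of 71.3 ± 12.3 (SD, n = 2), from 1228 and 3280 counts. It exceeded its partner Mms19, at 40.3 and 48.3 TPM, by 0.67 ± 0.07 on the log2 scale, and Nfs1 by 0.77 ± 0.03 (SD, n = 2 for both), both inside the bound. With protein-coding transcripts alone, Ciao1 fell to rank 9 of 9 in replicate 1 and 7 of 9 in replicate 2. Its difference from Nfs1 then turned to -0.23, while its difference from Mms19 grew to 1.39, past the whole-gene bound. The partners of the cytosolic route were 10 of 10 expressed, beside 42.5% of all protein-coding genes, with list medians of 66.7 and 55.1 TPM. Ciapin1, the electron carrier of the early cytosolic step, led them at 417 and 280 TPM, ahead of Bola2 and of Nubp2, a scaffold subunit, at 161 and 171 TPM.

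Ranked by mean level, the order was Glrx5, Bola3, Iscu, Nfu1, Ciao1, Isca1, Hscb, Nfs1 and Isca2, but few of its steps were larger than the spread between libraries. Of the 8 neighbouring steps, 4 had the same direction in both libraries. The step from Glrx5 to Bola3, 1.31 ± 0.39 on the log2 scale (SD, n = 2), was the 1 step past the bound. The next, from Bola3 to Iscu, was 1.01 ± 0.15 (SD, n = 2) and just inside it. Iscu and Nfu1, Isca1 and Hscb, Hscb and Nfs1, and Nfs1 and Isca2 each changed places between libraries. Over all 36 pairs of the 9 genes, 29 had the same direction in both libraries and 17 were past the bound. Glrx5 was in 8 of those 17 and Bola3 in 6, with the pair of Glrx5 and Bola3 counted in both. Of 13 pairs chosen by role, which include partners outside the 9, 11 kept their direction, 6 were past the bound and 5 were at least 2-fold in both libraries. The same shares over pairs of other expressed genes were not computed, so these counts describe the listed pairs only.

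Between the libraries, the counts of the 9 genes were compared after TMM scaling, with 1 library on each side and hence no test. None of the 9 was past 2-fold, beside 29.5% of 12414 genes with at least 50 counts, of which 16.3% were higher in replicate 2 and 13.2% higher in replicate 1. Glrx5 was just inside, at a log2 ratio of 0.99 (95% counting interval 0.95 to 1.03), above 83.4% of the genes compared. Isca1 followed at 0.77, Ciao1 at 0.51, Nfs1 at 0.39, Nfu1 at 0.30 and Bola3 at 0.15. Iscu at -0.10, Isca2 at -0.12 and Hscb at -0.31 were lower in replicate 2. The median of the 9 was 0.30, beside 0.02 over all genes compared.

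How many of these ratios were positive depended on the scaling. TMM and total counts gave 6 of 9 and TPM gave 7. DESeq2 size factors, TMM over all genes with a count, TPM rescaled over protein-coding genes and TMM with a GC trend removed gave 8 each. The share of all genes with a positive ratio was not computed. DESeq2 size factors and TMM over all genes with a count each moved the median of all genes by 0.25. Ratios are therefore also given less the median of all genes under the same scaling. On that footing, over the 7 scalings, Glrx5 lay between 0.97 and 1.32, Isca1 between 0.65 and 0.81 and Hscb between -0.90 and -0.33. Iscu, between -0.12 and 0.28, and Isca2, between -0.14 and 0.02, changed sign. Before that subtraction Glrx5 was past 2-fold under every scaling but TMM and TPM, from 1.05 with total counts to 1.30 with the GC trend removed, and Isca1 reached 1.02 with DESeq2 size factors. Hscb, the gene of lowest GC content at 44.1%, moved most when the GC trend was removed, to -0.92.

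**Figure D2:**
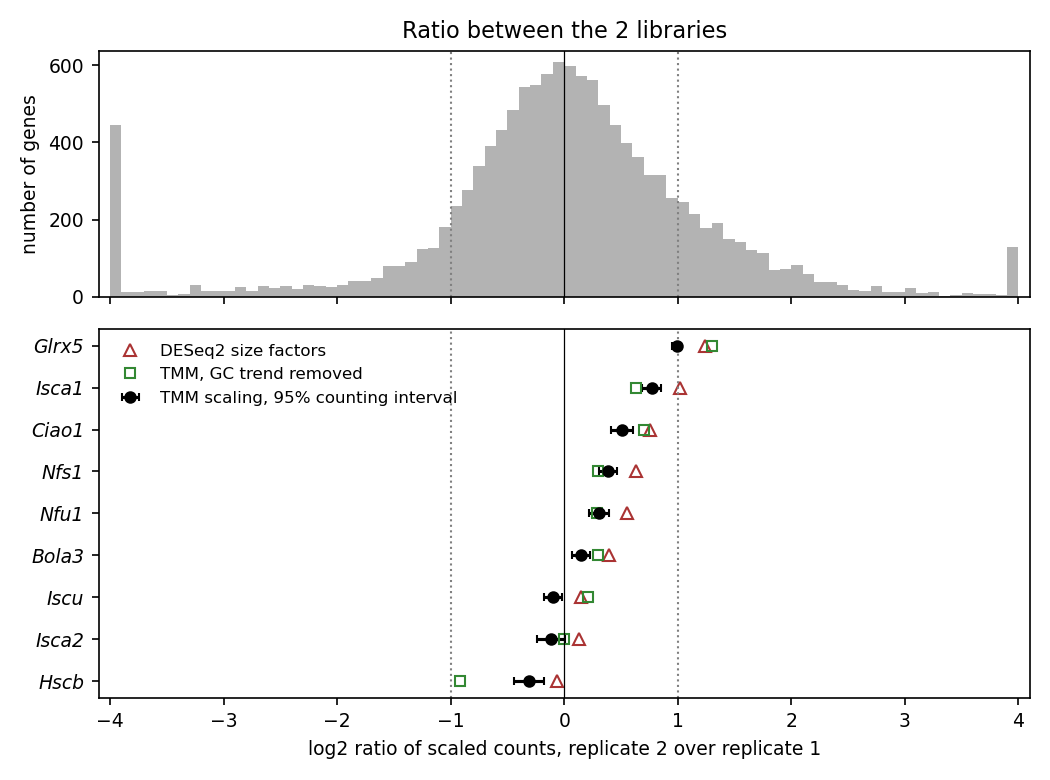
Log2 ratio of scaled counts, replicate 2 over replicate 1, for all 12414 genes compared (upper panel, number of genes in each bin, the end bins holding all beyond) and for the 9 genes (lower panel). Circles are TMM scaling with 95% counting intervals, triangles DESeq2 size factors and squares TMM with the GC trend removed, and dotted lines mark 2-fold. With TMM, Glrx5 lies at 0.99 and Hscb at -0.31, all 9 between the dotted lines.

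The tables divide the level of the 9 genes among 39 annotated transcripts, 23 of them protein-coding. Glrx5 and Isca2 have 1 transcript each. The transcript with the largest share of TPM did not change between libraries in 7 of 9 genes, and the exceptions were Iscu and Bola3. Protein-coding transcripts held 90% or more of the level in both libraries in 6 of 9 genes, all but Iscu, Bola3 and Ciao1. The same shares over other expressed genes were not computed. Whether a change of leading transcript or a low protein-coding share is unusual in these libraries was therefore not tested.

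Iscu changed in which transcript led. Iscu-201, a protein-coding transcript of 957 nt, held 77.2% of the gene's TPM in replicate 1 and 40.6% in replicate 2. Iscu-205, a transcript of 489 nt annotated for nonsense-mediated decay, held 0% and 40.9%, from 0 and 766 counts. In counts, which are not weighted by length, Iscu-205 held 23.6% of the gene in replicate 2 and Iscu-201 led in both libraries. The level of protein-coding Iscu transcripts was 81.5 and 55.5 TPM, so that the higher library was replicate 1 by this measure and replicate 2 for the whole gene.

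Bola3 showed the same kind of difference. The protein-coding Bola3-203 held 74.3% and 35.4% of TPM, and Bola3-204, a retained-intron transcript of 315 nt, held 6.02% and 48.8%, from 60.9 and 1194 counts. In counts Bola3-204 held 29.0% in replicate 2, and Bola3-203 led in both libraries. Protein-coding Bola3 transcripts came to 119 and 82.4 TPM, against 155 and 207 TPM for the gene. In Iscu and Bola3 the transcripts that gained share, at 489 and 315 nt, are shorter than those that lost it, at 957 and 554 nt. In Hscb the shorter form lost share instead, with Hscb-204 of 452 nt falling and Hscb-201 of 804 nt rising. Ciao1-202, of 581 nt, also lost share. The libraries differ in read length. The part of read length in these shares was not tested.

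Ciao1 was divided alike in both libraries. Ciao1-202, a retained-intron transcript of 581 nt, held 56.4% and 48.7% of TPM, and the protein-coding Ciao1-204 held 40.3% and 45.5%. In counts Ciao1-204 led, with 51.5% and 53.0%. Protein-coding transcripts of Ciao1 came to 27.3 and 41.0 TPM. Hscb moved between 2 protein-coding transcripts, with Hscb-201 at 60.5% and 98.6% and the shorter Hscb-204 at 39.0% and 1.21%. The other genes with several transcripts kept 1 leading form, with Nfs1-201 at 92.5% and 91.7%, Isca1-201 at 97.9% and 98.6%, and Nfu1-202 at 82.5% and 90.4%. Counting each gene's leading transcript by counts, or among protein-coding transcripts only, gave the same leader in both libraries for 9 of 9.

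**Figure D3:**
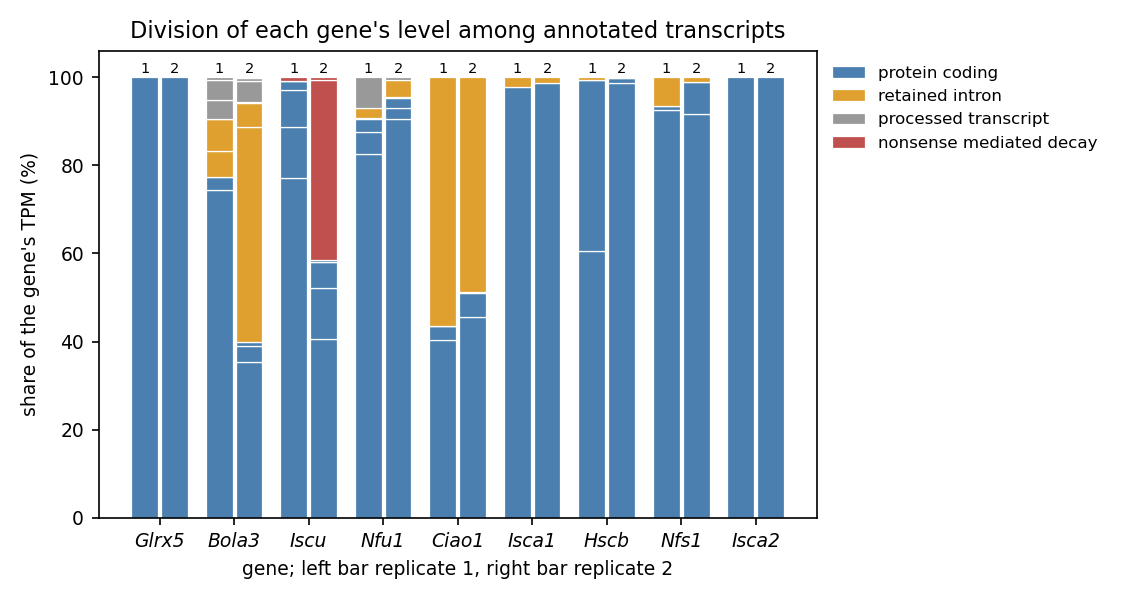
Share of each gene's TPM (%) assigned to its annotated transcripts, left bar replicate 1 and right bar replicate 2, with white lines between transcripts and colour for annotated type. The decay-annotated Iscu form goes from 0% to 40.9%, a retained-intron Bola3 form from 6.02% to 48.8%, and Ciao1 holds a retained-intron form at 56.4% and 48.7%.

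The assembly genes often lay head to head with another gene. Of the 9, 7 had a gene start on the opposite strand within 1000 bases of their own, beside 30.9% of 9118 expressed protein-coding genes and 18.6% of all protein-coding genes. For 5 of the 9 that neighbour was protein-coding, beside 20.2% of expressed genes. Bola3 and Nfu1 were the 2 without one, counted from the GENCODE gene starts. The RefSeq start of Nfu1 lies 600 bases downstream of its GENCODE start, and no count was made from RefSeq starts. Iscu starts 238 bases from the splicing factor gene Sart3, Hscb 202 bases from the checkpoint kinase gene Chek2, and Glrx5 409 bases from the lincRNA Snhg10, whose level is not analysed here. Isca2 starts 99 bases from Npc2, a lysosomal cholesterol carrier, and Ciao1 92 bases from Tmem127, the pairs whose gaps are printed above.

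Levels of the neighbours did not track those of the assembly genes in a single way. Sart3 was at 43.1 and 52.8 TPM and Chek2 at 16.7 and 19.9 TPM, each below its assembly gene in both libraries. Npc2, at 55.9 and 52.4 TPM, was above Isca2 in both. Tmem127 was at 45.0 and 14.5 TPM, so that Ciao1 exceeded it by 0.47 on the log2 scale in replicate 1 and by 2.39 in replicate 2. In scaled counts Tmem127 was lower in replicate 2, at -0.42, where Ciao1 was higher, at 0.51. Of the 6 neighbours in the tables, 5 were expressed, 4 were below their assembly gene in both libraries, and 3 had a ratio between libraries of the opposite sign.

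Nfs1 and Isca1 overlap the neighbour at their 5′ ends. Romo1, which encodes a small mitochondrial inner membrane protein, starts 147 bases inside Nfs1 and shares 148 exon bases with it, 4.097% of the Nfs1 exons. Romo1 was at 177 and 470 TPM, above Nfs1 in both libraries, with a log2 ratio of 1.20 in scaled counts. Etohd2, an antisense gene, shares 314 exon bases with Isca1, 2.94% of its exons, and was at 1.13 and 0.94 TPM. The use of strand in counting is not stated, so reads of the shared bases cannot be told apart. On the same strand, Nfs1 shares 256 exon bases with Gm28036, and Isca1 overlaps Gm49354, which is not analysed here.

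**Figure D4:**
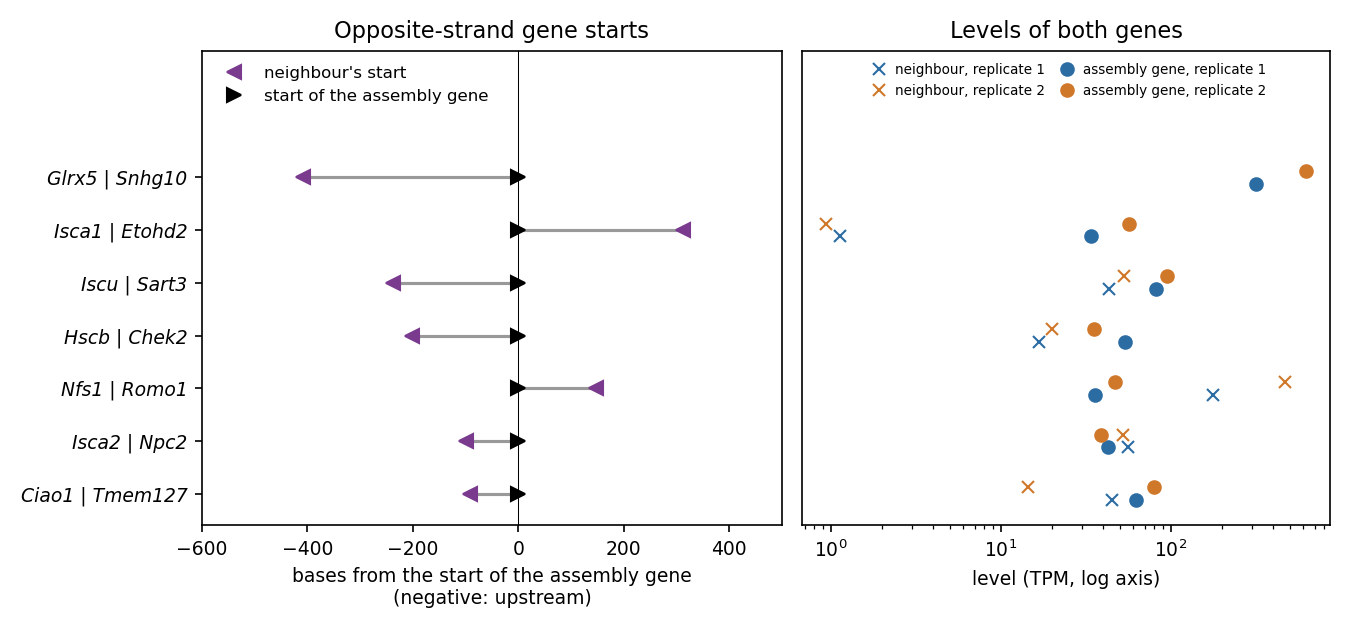
Left, distance in bases from the start of each of 7 assembly genes to the nearest opposite-strand gene start (negative is upstream). Right, TPM of both genes on a log axis, circles for the assembly gene and crosses for the neighbour, Snhg10 having no cross. Romo1 lies to the right of Nfs1 at 177 and 470 TPM, and Tmem127 moves from 45.0 to 14.5 TPM while Ciao1 moves from 62.6 to 80.0.

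In the wider pathway, 57 of 61 partner and client genes were past the 1 TPM threshold, beside 42.5% of all protein-coding genes. The lists were chosen with earlier results of these data known. Among those 61 genes, 59 were below Glrx5 in replicate 1 and 61 in replicate 2. By mean level Glrx5 lay above 99.0% of all protein-coding genes, so these counts are near that share. Of 58 partner and client genes with enough counts, 8 were past 2-fold higher in replicate 2 and 2 in replicate 1. Over all genes the shares were the 16.3% and 13.2% given above. Genes of mitochondrial iron supply and membrane transport were 4 of 4 expressed, with list medians of 18.6 and 23.5 TPM. The iron importers Slc25a28, at 40.2 and 30.9 TPM, and Slc25a37 (mitoferrin-1), at 17.8 and 15.7 TPM, stood below Iscu in both libraries. Abcb10, which stabilises mitoferrin-1, was at 19.4 and 29.4 TPM.

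Mitochondrial proteins that carry a cluster had the highest list medians, 98.0 and 124 TPM, with 13 of 13 expressed, beside 42.5% of protein-coding genes. The complex I subunit gene Ndufs7 was at 277 and 299 TPM, and Fech, the ferrochelatase that completes haem, at 232 and 250 TPM. Both were below Glrx5 in each library. In scaled counts, Ndufs1 at a log2 ratio of 1.06 and Uqcrfs1 at 1.79 were past 2-fold higher in replicate 2. Cisd3 at -1.64 was higher in replicate 1, and these genes are named after their values were seen. In TPM Ndufs1 was nearly level, at 98.0 and 108, with Uqcrfs1 at 36.7 and 124 and Cisd3 at 11.65 and 3.66. The cytosolic route had 2 genes past 2-fold, Glrx3 at 1.66 and Ciao2a, named after its value was seen, at 1.13.

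Cluster proteins of the cytosol and nucleus were 19 of 23 expressed, beside 42.5% of protein-coding genes, with list medians of 22.9 and 17.3 TPM. Pold1, the catalytic subunit of a replicative DNA polymerase, was at 285 and 155 TPM, the iron sensor Aco1 at 174 and 143 TPM, and the helicase Rtel1 at 187 and 82.5 TPM. Abce1, the ribosome recycling factor, was past 2-fold higher in replicate 2, at 1.44, and is named after its value was seen. The 4 genes not expressed were Xdh, Dpyd, Rsad2 and Aox1, each under 1 TPM in both libraries. Xdh and Dpyd had 7 and 5 counts in replicate 1 and 0 in replicate 2, where 3 counts would be 0.0146 and 0.0337 TPM. Aox1 was the gene past 2-fold higher in replicate 1, with 66 counts against 1.

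**Figure D5:**
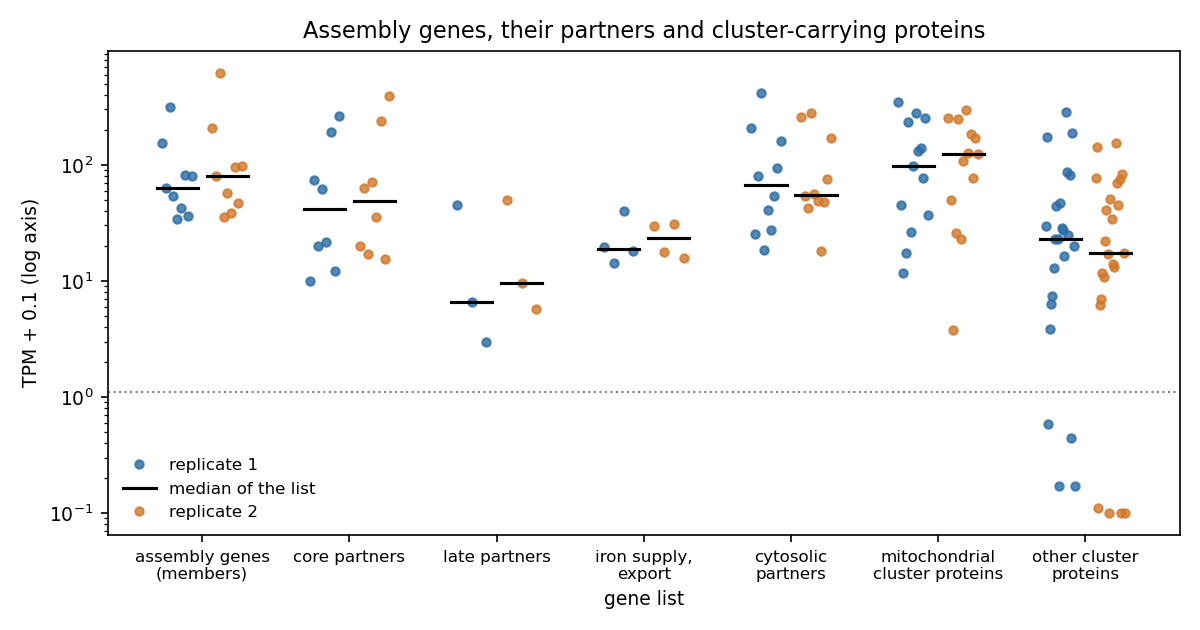
TPM + 0.1 on a log axis for the 9 assembly genes and 6 lists of partners and cluster-carrying proteins. Points are genes in each library, black lines list medians, and the dotted line is 1 TPM. Medians run from 6.44 and 9.47 TPM in the late partners to 98.0 and 124 TPM in the mitochondrial cluster proteins, and the 4 genes under the line are Xdh, Dpyd, Rsad2 and Aox1.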

How the data were processed

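Each library came with its own gene table and transcript table. Per the deposited notes, the assembly was mm10 and the annotation release M4; the aligner and quantifier were not given in the sources used here. Expected counts were deposited by the authors as unnormalised estimates of reads that may be fractional. Values in TPM were deposited, per the file headers, as counts over effective length scaled to 1 total per library, and the deposited signal column is a posterior mean of TPM. The deposited percent column splits a gene's TPM over its transcripts. Effective lengths differ between libraries with the read length, which weights short transcripts differently.

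The 9 genes, the partner and client lists, the 13 pairs and all thresholds were chosen with earlier results of these data known. The text names the 9 genes, both genes of each pair, the 3 highest genes and up to 2 genes under 1 TPM of each other list, and the genes head to head with or overlapping the 9; it says where others are named. A few genes under this rule are not reported here. Symbols, positions and transcript types came from GENCODE M21 (GRCm38), which matched 42462 of 43346 gene identifiers. Start regions came from RefSeq. Entries without a gene, 26345 in number, were not used; they held 0.0363% and 0.00942% of the expected counts.

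Counts, with 0.5 added, were scaled by TMM (edgeR 4.0.16, default expression filter, factors 0.982 and 1.02 over 12457 genes), and genes with at least 50 counts over both libraries were compared at 2-fold. Pairs were compared on log2(TPM + 1), which understates ratios of low genes. Poisson intervals cover counting error only. Shared sequence was the share of a gene's 36-base words found in transcripts of another gene. DESeq2 1.42.0 (size factors) ran in R 4.3.3, and statsmodels 0.14.6, scipy 1.17.1, numpy 2.4.6, pandas 2.3.3 and matplotlib 3.10.9 in Python 3.11.15, and the ratio steps were tested on simulated data. Alternatives covered scaling, thresholds, the pseudocount, the posterior mean and leaving out each library.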

Additional observations from a re-analysis of the deposited data

How the results depend on the processing

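The number of assembly genes past 2-fold between the libraries, 0 with TMM, was 2 with DESeq2 size factors, 1 with total counts, 1 with TPM rescaled over protein-coding genes and 2 at a 1.5-fold limit. Chosen after seeing the data, TMM over all genes with a count gave 2 and TMM with a GC trend removed gave 1. The ratio of TPM, or no minimum of counts, gave 0. The median level, 71.3 TPM, was 90.3 TPM when rescaled over protein-coding genes and 44.7 TPM with protein-coding transcripts only (chosen after seeing the data), both beyond the SD of 12.3 TPM between the libraries. It lay between 62.6 and 80.0 TPM with 1 library left out. All 9 genes were expressed at 5 and at 10 TPM. Pairs at least 2-fold in both libraries, 5 of 13, numbered 4 to 6 over the alternatives, 6 and 6 with 1 library left out. The same transcript led in 7 of 9 genes by TPM and in 9 by counts (an alternative also chosen after seeing the data), partner and client genes expressed were 57, or 54 at 5 TPM, and 7 genes kept a head-to-head neighbour within 500 bases. With 1 library a side, no call could be checked against replicates. No paired analysis was possible because the 2 libraries form 1 group.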
